A study of Saccharomyces cerevisiae with 8 samples.

Results

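Messenger RNA is read by ribosomes with the help of initiation, elongation and termination factors, and 41 yeast genes for such factors, named from their textbook roles, are described here. All 41 were found among the 7127 genes of the count table, and all 41 passed the filter of 10 CPM (counts scaled to the library total) or more in 2 or more of the 8 libraries. Poly(A) RNA of Saccharomyces cerevisiae was sequenced from CRN/PPN2 and from its parent CRN, each grown in YPD (glucose, peptone and yeast extract) with 20 mM KOH and in YPD alone. CRN (MATa ade2 his3 ura3 ppn1Δ::CgTRP1) lacks the polyphosphatase gene PPN1, and so does CRN/PPN2. CRN/PPN2 carries in addition the URA3-marked centromeric plasmid pMB1, on which the polyphosphatase gene PPN2 is expressed from the constitutive TDH3 promoter. The labels name no plasmid in CRN, so the vector and its URA3 marker come with PPN2 overexpression. CRN/PPN2 with KOH was harvested after 25 h, CRN with KOH after 40 h, and both strains in YPD after 16 h.

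Each of the 4 groups held 2 libraries, with replicate 1 and replicate 2 prepared and sequenced in separate batches. No source says that they were separate cultures, so the spread behind each p-value may be technical. Library totals were 1559324 and 796548 counts in CRN/PPN2 with KOH and 3844316 to 5004823 counts in the other 6 libraries, and the translation factor genes took 2.39 to 2.9% of them. The CRN/PPN2 cells with KOH were lysed directly in Trizol LS, while all other cells were first frozen and French-pressed, so strain, medium, time and lysis cannot be told apart for this group. In CRN, medium and time cannot be told apart either (40 h with KOH, 16 h in YPD). A KOH effect below is thus one of KOH together with its harvest time, also where the effects of the 2 strains are compared. PPN2 had 5981 and 6114 CPM in CRN/PPN2 with KOH, against 219.7 and 207 CPM in CRN with KOH, and PPN1 had at most 1 count in any library. In CRN/PPN2 with KOH, replicate 2 differed from replicate 1 with coding length: the median log2 difference was -0.29 over 857 genes of up to 600 coding bases and 0.18 over 848 genes of more than 2400 bases. Of the factor genes of up to 600 bases, TIF11 (1756 and 1039 CPM in replicates 1 and 2), SUI1 (896.5 and 715 CPM) and HYP2 (1146 and 922 CPM) were lower in replicate 2. ANB1 (23.3 and 24.8 CPM) was not. CDC33, of 642 coding bases, had 1058 and 499 CPM. Factor genes of more than 2400 bases went both ways, as in TIF4631 (297 and 235 CPM) and TIF4632 (292 and 324 CPM).

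Initiation starts when eIF4E on the mRNA cap, the scaffold eIF4G and the helicase eIF4A recruit a small ribosomal subunit that carries eIF1, eIF1A, eIF3, eIF5 and eIF2 with the initiator tRNA. eIF2B reloads eIF2 with GTP, and the kinase Gcn2 blocks that step in amino acid starvation, which favours translation of the transcription factor Gcn4. The elongation factors eEF1A, eEF2, eEF3 and eIF5A then carry the ribosome along the message, and eRF1, eRF3 and Rli1 release the protein and split the ribosome. Many of these genes are highly expressed in growing yeast, and an mRNA level reports neither the amount nor the activity of the factor.

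Several factors are encoded by gene pairs, and how far their reads can be told apart depends on the sequence. TEF1 and TEF2, both for eEF1A, differed at 2 of their 1377 coding bases (R64 genome), in the stretch from base 732 to base 864 of the coding sequence that is shown here because counts within these coding sequences rest on it (bases that differ in capitals, 5′ to 3′).
TEF1, chrXVI:701325-701457, plus strand: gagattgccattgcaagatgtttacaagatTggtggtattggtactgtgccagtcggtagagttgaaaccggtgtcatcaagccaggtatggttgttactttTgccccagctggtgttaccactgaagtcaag
TEF2, chrII:478402-478534, plus strand: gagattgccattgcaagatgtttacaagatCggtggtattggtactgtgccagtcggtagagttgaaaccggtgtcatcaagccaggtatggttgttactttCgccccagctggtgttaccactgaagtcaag
Only 7.53% of the windows of 50 bases in either coding sequence occurred once in the genome, and 8.06% for EFT1 and EFT2 (eEF2) and 15.1% for TIF1 and TIF2 (eIF4A). The authors counted uniquely mapped reads, so reads from the shared parts of these 3 pairs were left out, and their levels are uncertain. The eIF5A genes HYP2 and ANB1 were 90.9% identical over 474 bases, and all of their 425 windows of 50 bases occurred once. Their first 120 coding bases are shown because their levels moved in opposite directions with KOH in CRN/PPN2 (bases that differ in capitals).
HYP2, chrV:85676-85795, plus strand: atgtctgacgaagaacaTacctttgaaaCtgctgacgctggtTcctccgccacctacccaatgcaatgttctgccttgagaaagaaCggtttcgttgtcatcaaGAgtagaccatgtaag
ANB1, chrX:525262-525381, minus strand: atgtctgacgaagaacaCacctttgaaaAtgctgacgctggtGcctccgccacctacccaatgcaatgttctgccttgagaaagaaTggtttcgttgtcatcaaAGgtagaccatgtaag
Every window of 50 bases was also unique in TIF4631 and TIF4632 (eIF4G, 60.5% identical) and in TEF4 and CAM1 (the gamma subunit of eEF1B, 69.1% identical).

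The 300 bases from 400 to 101 bases before each start codon were searched on both strands for 6 short motifs. AAATTTT, the core of the ribosomal RNA processing element (RRPE) known from ribosome biogenesis genes, was found in 32 of 41 factor gene windows (78%) and in 24.2% of the 6001 windows of all protein-coding genes. It was in 6 of the 9 factor genes called higher and in 18 of the 21 called lower in CRN/PPN2 with KOH against YPD. The windows of EFT2 and HYP2, which were lower there, and of FUN12, which was higher, are shown with the matches in capitals, where a match on each strand overlaps the other.
EFT2, chrIV:1242830-1243129, plus strand: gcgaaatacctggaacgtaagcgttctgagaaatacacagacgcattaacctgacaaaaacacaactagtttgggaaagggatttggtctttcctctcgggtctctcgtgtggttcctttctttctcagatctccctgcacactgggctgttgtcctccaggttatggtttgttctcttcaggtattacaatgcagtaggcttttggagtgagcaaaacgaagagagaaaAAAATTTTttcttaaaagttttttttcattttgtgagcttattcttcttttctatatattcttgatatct
HYP2, chrV:85276-85575, plus strand: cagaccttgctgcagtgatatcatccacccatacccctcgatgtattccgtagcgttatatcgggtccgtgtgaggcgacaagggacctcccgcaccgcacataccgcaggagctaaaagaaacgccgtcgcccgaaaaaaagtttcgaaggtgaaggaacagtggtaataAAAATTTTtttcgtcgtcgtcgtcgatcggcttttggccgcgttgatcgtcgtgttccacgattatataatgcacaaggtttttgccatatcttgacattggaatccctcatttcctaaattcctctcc
FUN12, chrI:76027-76326, plus strand: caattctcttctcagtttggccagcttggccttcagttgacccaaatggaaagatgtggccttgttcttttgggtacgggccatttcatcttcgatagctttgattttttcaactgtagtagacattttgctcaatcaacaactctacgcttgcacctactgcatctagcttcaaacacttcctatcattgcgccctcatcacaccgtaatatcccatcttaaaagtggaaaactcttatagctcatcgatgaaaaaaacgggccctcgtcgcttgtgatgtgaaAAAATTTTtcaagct
The PAC motif GATGAG was in 26.8% of the factor gene windows against 18.4% of all windows, the stress element AGGGG in 12.2% against 23.5%, and the Rox1 core ATTGTT in 22% against 31.9%. The Gcn4 motif TGACTCA was in 0 of 41 factor gene windows and in 2.88% of all windows, and the Rap1 motif CCCATAC in 1 factor gene window (HYP2) and in 2.5% of all.

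In YPD, 2 of the 41 factor genes differed between CRN/PPN2 and CRN at an adjusted p under 0.05, both lower in CRN/PPN2. The other 39 were not called, and 6.5% of the 5430 genes tested were called. Of all genes tested 2.38% were called lower and 4.13% higher. The median log2 fold change of the factor genes was -0.15, against 0.01 over all genes, and 33 of the 41 values were negative. The genes called were ANB1, the hypoxic eIF5A gene, and TEF4, a gene for the gamma subunit of the eEF1A exchange factor. TEF4 had 579.7 and 879 CPM in CRN/PPN2 and 839 and 1294 CPM in CRN, so that replicate 2 of CRN/PPN2 lay above replicate 1 of CRN. The log2 fold change, from edgeR's quasi-likelihood test with Benjamini-Hochberg adjustment over all genes tested, was -0.55 ± 0.16 (SE), adjusted p = 0.0482. ANB1 had 8.57 and 8.23 CPM in CRN/PPN2 against 13.6 and 15.7 CPM in CRN, where both strains were low and the ranges did not overlap (-0.80 ± 0.22 (SE), adjusted p = 0.0314). After all libraries were thinned to the smallest total, the ANB1 value was -0.15 (adjusted p = 0.953), and with DESeq2 it was not called. Both calls were lost when any 1 of the 6 libraries other than those of CRN/PPN2 with KOH was left out (0 factor genes called), and 10 and 9 factor genes were called without replicate 1 and without replicate 2 of CRN/PPN2 with KOH. Among the values next to the threshold, SUI1 had -0.44 (adjusted p = 0.0535), EFB1 -0.46 (adjusted p = 0.0742) and GCD7 -0.42 (adjusted p = 0.0768), all on the log2 scale from edgeR.

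With KOH the strains differed widely. In CRN/PPN2 against CRN, both with KOH, 27 factor genes were lower and 6 higher, so 33 of 41 were called, against 56.7% of all genes tested (25.9% lower and 30.8% higher). The median log2 fold change was -0.61 over the factor genes and 0.03 over all genes. All 6 eIF3 genes were lower, as were 8 of 10 elongation genes and all 3 termination and recycling genes, and the 6 that were higher were SUI1, TIF11, FUN12, TIF4632, GCN2 and GCN4.

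**Figure D1:**
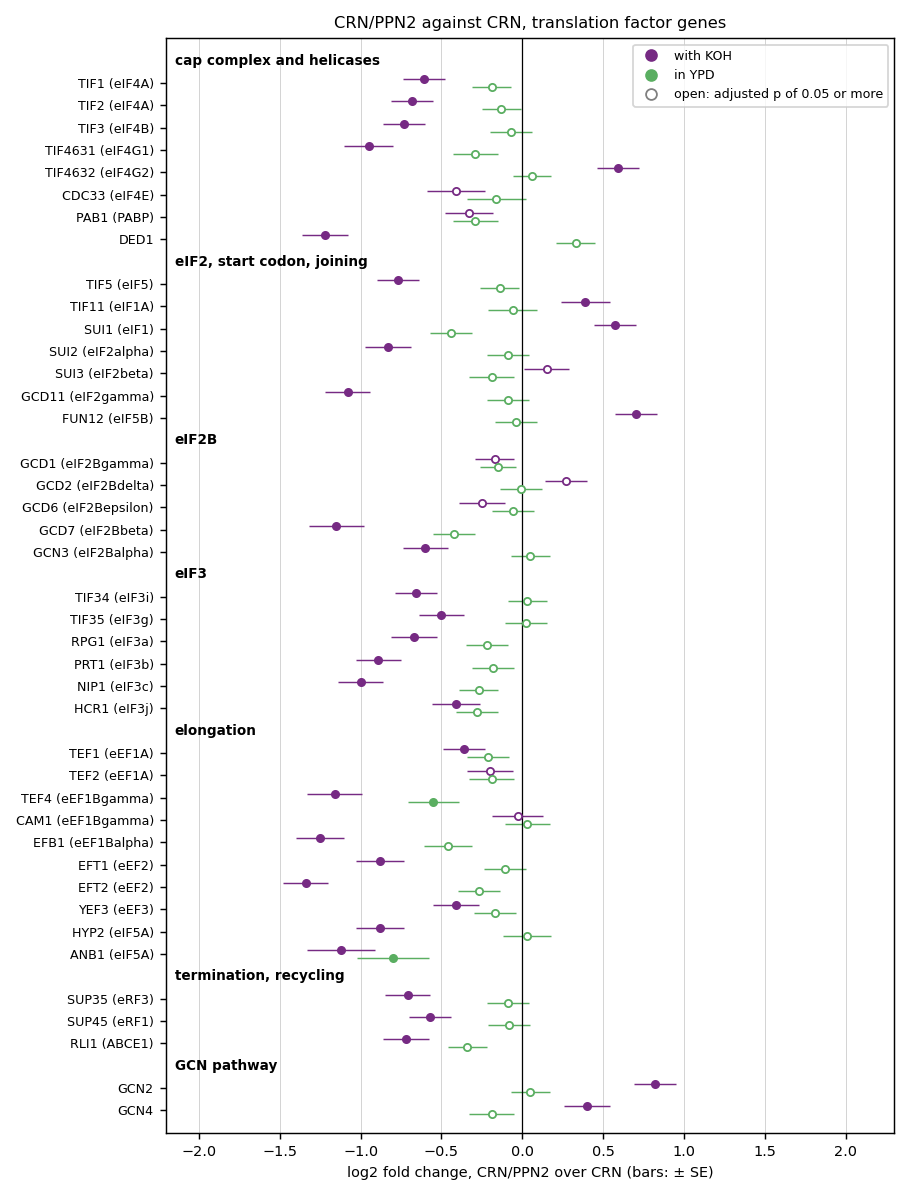
Log2 fold change of CRN/PPN2 over CRN with KOH (purple) and in YPD (green) for the 41 factor genes grouped by role, with bars of ± SE and open points where the adjusted p was 0.05 or more. Purple points lie mostly left of 0, down to -1.34 for EFT2, while only ANB1 and TEF4 are filled in green.

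With KOH, 3 factor genes were called in CRN and 30 in CRN/PPN2, and the number in CRN depended on the fit. The SD between replicates over all genes tested (log2 scale) was 0.308 in CRN/PPN2 with KOH and 0.165 to 0.214 in the other groups. The fit used 1 dispersion per gene for all groups, and how far this shifted the numbers called in each strain was not tested. In CRN, 3 of the 41 factor genes were called, all higher (ANB1, SUI1 and GCD2), against 15.1% of all genes tested (7.53% higher and 7.61% lower), with a median of 0.15 against 0.01 over all genes. In the 4 CRN libraries alone 14 were called, 12 higher and 2 lower (HYP2 and GCN4). Without replicate 1 of CRN/PPN2 with KOH 11 were called, without replicate 2 or without both 9, and without any 1 of the other 6 libraries 1. In CRN/PPN2, 21 factor genes were lower and 9 higher with KOH, so 30 of 41 were called, against 54.7% of all genes tested (25.5% lower and 29.2% higher). The median was -0.37, against -0.01 over all genes. The difference between these KOH effects was tested directly and was called for 25 factor genes, 20 with a lower and 5 with a higher effect in CRN/PPN2, against 39.7% of all genes (17.6% lower and 22.2% higher). Without replicate 1 of CRN with KOH that number was 12, and without the replicate block 16. The strain and KOH comparisons share libraries, CRN/PPN2 with KOH in particular, and are given side by side. Groups of 2 libraries often do not overlap. For KOH in CRN/PPN2, 34.4% of all genes tested lay above and 35.4% below their YPD libraries without overlap. These shares were 30.7% and 26.1% for KOH in CRN and 38.2% and 35.9% for CRN/PPN2 against CRN with KOH. Shares for libraries above or below all 6 others were not counted.

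**Figure D2:**
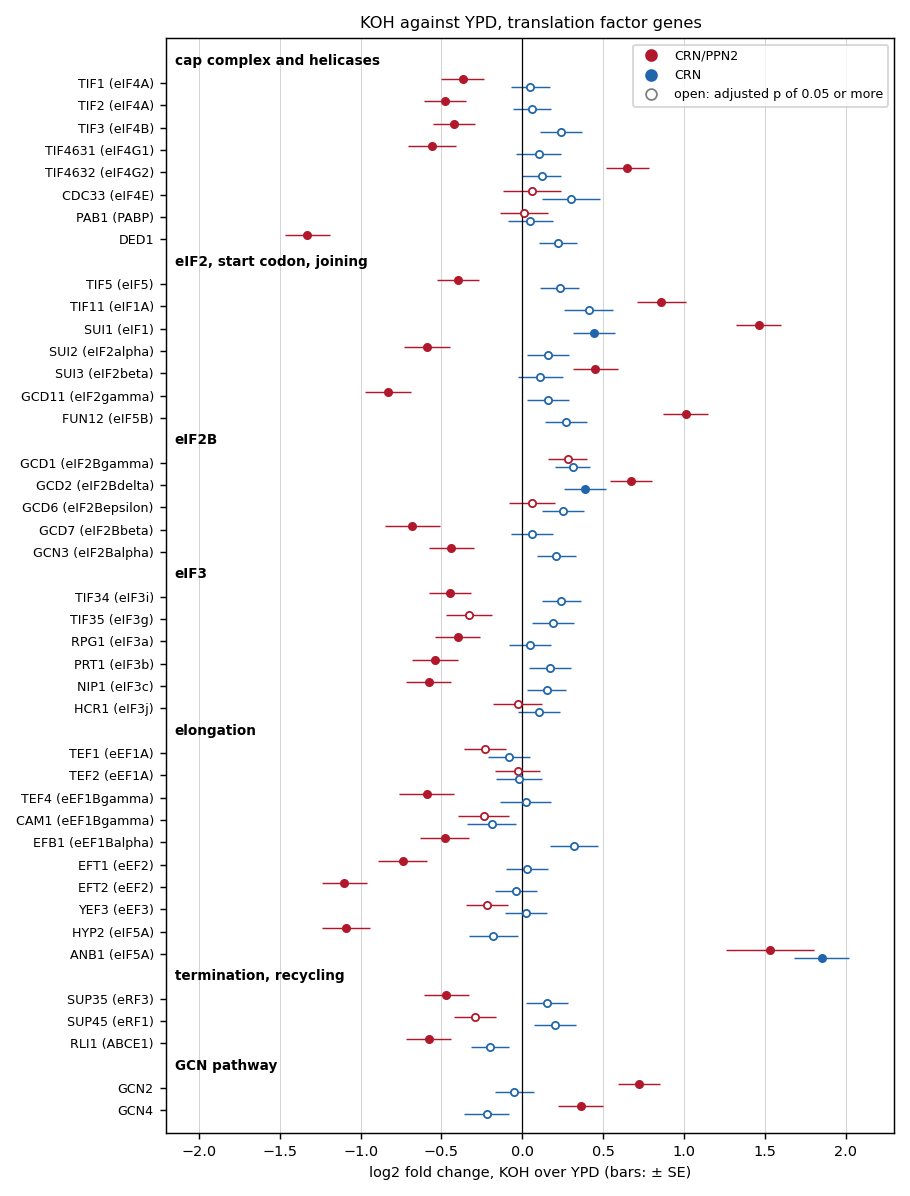
Log2 fold change of KOH over YPD in CRN/PPN2 (red) and in CRN (blue) for the 41 factor genes grouped by role, with bars of ± SE and open points where the adjusted p was 0.05 or more. Most red points of eIF3, elongation and termination genes lie left of 0 and the blue ones near 0, while ANB1 lies right of 1.5 in both strains.

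Among the factors that bind and open the cap-proximal message, DED1, a DEAD-box helicase that helps scanning through structured leaders, had the lowest KOH effect in CRN/PPN2. DED1 had 90.9 and 86.3 CPM in CRN/PPN2 with KOH against 239 and 208 CPM in CRN/PPN2 in YPD, and 208 and 204 CPM in CRN with KOH against 172 and 182 CPM in CRN in YPD. Both libraries of CRN/PPN2 with KOH lay below all 6 others, at less than 100 CPM. The log2 fold change with KOH was -1.33 ± 0.14 (SE), adjusted p = 4.81e-07 in CRN/PPN2 and 0.22 ± 0.12 (SE), adjusted p = 0.221 in CRN. The difference of these effects was -1.55 ± 0.18 (SE), adjusted p = 6.81e-06, and it was called in all 17 alternative settings.

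The eIF4G genes, which encode 2 forms of the scaffold that joins cap, helicase and poly(A)-binding protein, took opposite directions with KOH in CRN/PPN2. TIF4631 had 297 and 235 CPM in CRN/PPN2 with KOH, against 363 and 437 CPM in CRN/PPN2 in YPD. TIF4632 had 292 and 324 CPM in CRN/PPN2 with KOH, against 176 and 216 CPM in CRN/PPN2 in YPD. The libraries with KOH were thus all below those in YPD for TIF4631 and all above them for TIF4632. In CRN, TIF4631 had 514 and 529 CPM with KOH and 468 and 508 CPM in YPD. TIF4632 had 199.8 and 209.7 CPM with KOH and 187 and 188 CPM in YPD. Neither was called in CRN, and the log2 fold change in CRN/PPN2 was -0.56 ± 0.15 (SE), adjusted p = 0.00343 for TIF4631 and 0.65 ± 0.13 (SE), adjusted p = 0.000281 for TIF4632. The TIF4631 call was lost without replicate 2 of CRN/PPN2 in YPD (adjusted p = 0.0725), and its value ranged from -0.80 to -0.34 over the alternatives. Per kilobase of coding sequence, TIF4631 averaged 93.1 CPM and TIF4632 112 CPM in CRN/PPN2 with KOH, against 139.9 CPM for TIF4631 and 71.5 CPM for TIF4632 in CRN/PPN2 in YPD.

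The eIF4A helicase genes fell by less. TIF1 had 237 and 268 CPM and TIF2 290.2 and 306 CPM in CRN/PPN2 with KOH, against 349 and 300.3 CPM for TIF1 and 420.4 and 411 CPM for TIF2 in CRN/PPN2 in YPD. In CRN, TIF1 had 386 and 383 CPM with KOH and 371 and 371 CPM in YPD, and TIF2 491 and 461 CPM with KOH and 459 and 452 CPM in YPD. All libraries of CRN/PPN2 with KOH were the lowest for both genes. The log2 fold change with KOH in CRN/PPN2 was -0.37 ± 0.13 (SE), adjusted p = 0.0269 for TIF1 and -0.48 ± 0.13 (SE), adjusted p = 0.00394 for TIF2. The TIF1 call was kept in 14 of 18 alternatives (values from -0.51 to -0.20). It was lost with no replicate block, in the 4 libraries of the comparison alone and without replicate 1 of CRN/PPN2 in either medium. TIF3, for the eIF4A partner eIF4B, was at -0.42 (adjusted p = 0.0123), a call lost after thinning and without replicate 1 of CRN/PPN2 in either medium (adjusted p up to 0.153). CDC33, for the cap-binding eIF4E (0.06, adjusted p = 0.807), and PAB1, for the poly(A)-binding protein (0.01, adjusted p = 0.943), were not called in any comparison. The CDC33 value rested on single libraries, being -0.41 (adjusted p = 0.0102) without replicate 1 and 0.45 (adjusted p = 0.00188) without replicate 2 of CRN/PPN2 with KOH. Against CRN with KOH, CDC33 (-0.41) was called in 6 and PAB1 (-0.33) in 5 alternatives.

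The factors that choose the start codon and join the subunits held several of the highest KOH effects. SUI1, for eIF1, which keeps the scanning ribosome open until a start codon is met, had 896 and 715 CPM in CRN/PPN2 with KOH against 325 and 262 CPM in CRN/PPN2 in YPD. In CRN it had 536 and 544 CPM with KOH against 401 and 394 CPM in YPD. The libraries with KOH were above those in YPD in each strain without overlap. SUI1 rose with KOH by 1.46 ± 0.14 (SE), adjusted p = 8.89e-08 in CRN/PPN2 and by 0.44 ± 0.13 (SE), adjusted p = 0.0303 in CRN, and the difference of the effects was 1.02 ± 0.19 (SE), adjusted p = 0.000457. The call in CRN was kept in 11 of 19 alternatives and was lost when any 1 library other than those of CRN/PPN2 with KOH was left out (adjusted p up to 0.467). SUI1 is short, 327 coding bases, and with a coding-length trend removed its values were 0.92 in CRN/PPN2 and 0.58 for the difference, both still called, while the strain difference with KOH (0.57) was 0.10 and not called. That call was also lost without replicate 1 of CRN with KOH.

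FUN12, for eIF5B, the GTPase that joins the large subunit, had 1910.4 and 1756 CPM in CRN/PPN2 with KOH against 877 and 949 CPM in CRN/PPN2 in YPD. In CRN it had 1118 and 1142 CPM with KOH against 987 and 889 CPM in YPD. CRN/PPN2 with KOH held the highest libraries, above all 6 others, with log2 fold changes of 1.01 ± 0.14 (SE), adjusted p = 6.98e-06 in CRN/PPN2 and 0.27 ± 0.13 (SE), adjusted p = 0.187 in CRN. TIF11, for eIF1A, the partner of eIF1 in the decoding site, was higher with KOH in CRN/PPN2 (0.86, adjusted p = 0.000157) in all 18 alternatives, not called in CRN (0.41, adjusted p = 0.0787), and called against CRN with KOH (0.39) in 6 of 18 alternatives only. TIF5, for eIF5, which triggers GTP hydrolysis on eIF2, was at -0.40 (adjusted p = 0.0129), a call lost without either library of CRN/PPN2 in YPD (adjusted p up to 0.0687).

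The subunits of eIF2 did not move together. GCD11, for the GTP-binding gamma subunit, had 174 and 227 CPM in CRN/PPN2 with KOH against 358 and 346 CPM in CRN/PPN2 in YPD. In CRN it had 426 and 411 CPM with KOH against 368 and 382 CPM in YPD, so both libraries of CRN/PPN2 with KOH were below all others. GCD11 fell with KOH in CRN/PPN2 (-0.83 ± 0.14 (SE), adjusted p = 8e-05), and the difference from CRN was -0.99 ± 0.19 (SE), adjusted p = 0.000593. SUI2, for the alpha subunit that Gcn2 phosphorylates, was at -0.59 (adjusted p = 0.00221), while SUI3, for the beta subunit, was at 0.45 (adjusted p = 0.0106). The SUI3 call was kept in 14 of 18 alternatives (values from 0.31 to 0.61). It was lost with no replicate block, in the 4 libraries of the comparison alone and without either library of CRN/PPN2 in YPD. The SUI2 call was lost without replicate 2 of CRN/PPN2 in YPD (values from -0.76 to -0.44 over the alternatives). The difference between the subunits was not tested.

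In eIF2B, the exchange factor of eIF2, GCD7 (beta, -0.68, adjusted p = 0.00322) and GCN3 (alpha, -0.44, adjusted p = 0.0102) were lower with KOH in CRN/PPN2. GCD2 (delta) was higher. The GCD7 call was lost without replicate 2 of CRN/PPN2 in YPD (adjusted p = 0.0627), and the GCN3 call without replicate 1 of that group and with no replicate block (adjusted p up to 0.109). GCD2 had 298 and 351 CPM in CRN/PPN2 with KOH against 189 and 216 CPM in CRN/PPN2 in YPD, and 269 and 268 CPM in CRN with KOH against 219 and 189 CPM in CRN in YPD. The libraries with KOH were above those in YPD in each strain, with 0.67 ± 0.13 (SE), adjusted p = 0.00041 in CRN/PPN2 and 0.39 ± 0.13 (SE), adjusted p = 0.0461 in CRN. The call in CRN was kept in 10 of 19 alternatives and was lost when any 1 library other than those of CRN/PPN2 with KOH was left out (adjusted p up to 0.606). GCD1 and GCD6, for the catalytic gamma and epsilon subunits, were not called in any comparison, at 0.28 and 0.06 for KOH in CRN/PPN2. For KOH in CRN, GCD1 (0.31) was called in 7 and GCD6 (0.25) in 2 alternatives. Against CRN with KOH, GCD6 (-0.25) was called in 3 alternatives.

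All 6 eIF3 genes, for the complex that bridges the small subunit and the mRNA, had negative KOH effects in CRN/PPN2, of which 4 were called: NIP1 (-0.58), PRT1 (-0.54), TIF34 (-0.45) and RPG1 (-0.40). TIF35 (-0.33, adjusted p = 0.0545) and HCR1 (-0.03, adjusted p = 0.881) were not. The RPG1 call was lost without replicate 2 of CRN/PPN2 in either medium and with no replicate block (value up to -0.23, adjusted p up to 0.245), and the TIF34 call without replicate 1 of CRN/PPN2 in YPD (adjusted p = 0.057). TIF35 was called in 6 alternatives. Against CRN with KOH the range was -0.41 for HCR1 to -1.0 for NIP1, and all 6 were called. HCR1 kept its call there in 13 of 18 alternatives (values from -0.71 to -0.13). It was lost with no replicate block, after thinning, without either library of CRN with KOH and without replicate 2 of CRN/PPN2 with KOH. TIF35 lost its call there without replicate 2 of CRN with KOH (values from -0.65 to -0.32 over the alternatives). In CRN the KOH effects were between 0.05 and 0.24 and none was called.

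**Figure D3:**
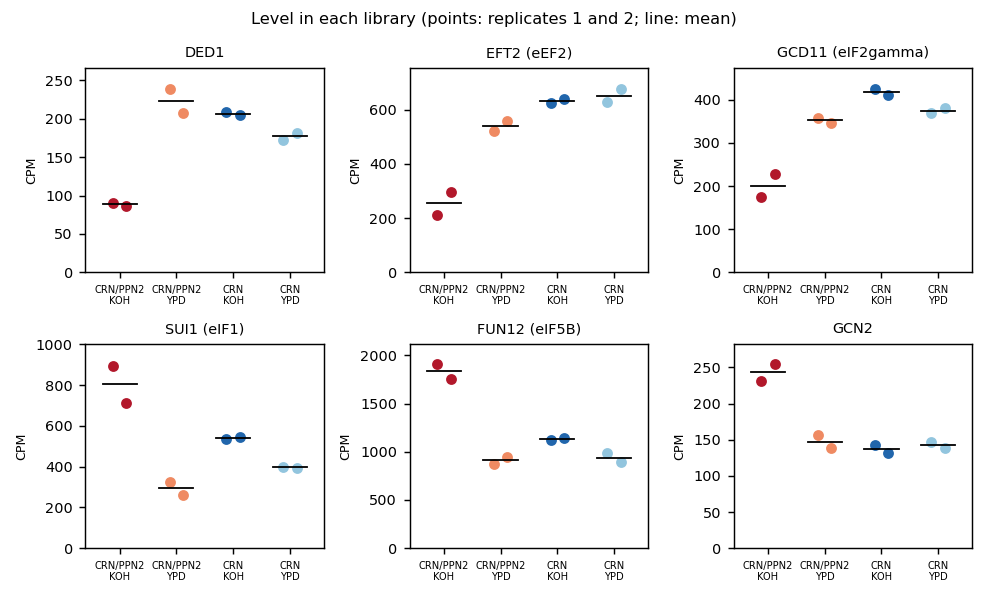
CPM (TMM-scaled, linear axis from 0) of 6 factor genes in each of the 8 libraries by group, with points for replicates 1 and 2 and a line at their mean. In CRN/PPN2 with KOH both points of DED1, EFT2 and GCD11 lie below, and both of SUI1, FUN12 and GCN2 above, the points of the other 3 groups.

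Of the elongation genes, EFT2, for the translocation factor eEF2, had the lowest level relative to CRN with KOH. EFT2 had 212 and 297 CPM in CRN/PPN2 with KOH, 521 and 558 CPM in CRN/PPN2 in YPD, 627 and 641 CPM in CRN with KOH and 629.7 and 675 CPM in CRN in YPD. Its partner EFT1 had 199 and 293 CPM in CRN/PPN2 with KOH, 396 and 410.3 CPM in CRN/PPN2 in YPD, 448 and 444 CPM in CRN with KOH and 426 and 446 CPM in CRN in YPD. CRN/PPN2 with KOH was below all other libraries for both genes. Log2 fold changes with KOH in CRN/PPN2 were -1.10 ± 0.14 (SE), adjusted p = 4.67e-06 for EFT2 and -0.74 ± 0.15 (SE), adjusted p = 0.0004 for EFT1, and against CRN with KOH -1.34 ± 0.14 (SE), adjusted p = 4.73e-07 for EFT2 and -0.88 ± 0.15 (SE), adjusted p = 6.34e-05 for EFT1.

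The eEF1A genes, for the carrier of aminoacyl-tRNA, were among those that moved least. TEF1 had 670.0 and 776 CPM in CRN/PPN2 with KOH, 729 and 987 CPM in CRN/PPN2 in YPD, 883 and 975 CPM in CRN with KOH and 894 and 1084 CPM in CRN in YPD. TEF2 had 1271 and 1558 CPM in CRN/PPN2 with KOH, 1177 and 1747 CPM in CRN/PPN2 in YPD, 1511 and 1742 CPM in CRN with KOH and 1463 and 1849.5 CPM in CRN in YPD. Replicate 2 was above replicate 1 in every group for both genes, and the groups overlapped for TEF2. TEF1 was called only against CRN with KOH (-0.36, adjusted p = 0.0278), in 11 of 18 alternatives, and was lost without either library of CRN in either medium, with adjusted p up to 0.244. TEF2 was not called in any comparison.

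The exchange factor that reloads eEF1A did change. EFB1, for its catalytic alpha subunit, had 845 and 798 CPM in CRN/PPN2 with KOH against 1806 and 2164 CPM in CRN with KOH, without overlap (-1.25 ± 0.15 (SE), adjusted p = 2.05e-06). In YPD it had 959.5 and 1370.2 CPM in CRN/PPN2 and 1501 and 1680.2 CPM in CRN. For the gamma subunit, TEF4 had 488 and 438 CPM in CRN/PPN2 with KOH against 913 and 1236 CPM in CRN with KOH (-1.16 ± 0.17 (SE), adjusted p = 1.34e-05). CAM1 had 221 and 182 CPM in CRN/PPN2 with KOH, 223 and 272 CPM in CRN/PPN2 in YPD, 175 and 254 CPM in CRN with KOH and 208 and 278 CPM in CRN in YPD, which overlapped. CAM1 was not called (-0.03, adjusted p = 0.882), but its value rested on single libraries. Without replicate 1 of CRN/PPN2 with KOH it was -0.39 and called (adjusted p = 0.0421), and without replicate 2 it was 0.30 and not called. The difference between TEF4 and CAM1 was not tested. EFB1 and TEF4 each overlap an annotated non-coding gene on the same strand, by 102 and 95 bases of the whole gene span. Both genes have 2 coding exons, and their spans of 987 and 1565 bases exceed their coding lengths of 621 and 1239 bases. Whether the overlap reaches coding bases, where reads could go uncounted as ambiguous, was not tested. YEF3, for the fungal factor eEF3, had the most counted CPM of the 41 genes. Reads from the shared parts of TEF1 and TEF2 were left out, so its place against them is uncertain. YEF3 had 3158 and 3354 CPM in CRN/PPN2 with KOH against 4176 and 4476 CPM in CRN with KOH. It was called only against CRN with KOH (-0.41, adjusted p = 0.0156). That call was kept in 14 of 18 alternatives (values from -0.52 to -0.37) and was lost without either library of CRN with KOH.

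The eIF5A genes moved in opposite directions with KOH in CRN/PPN2. eIF5A, which carries the modified residue hypusine and helps ribosomes past difficult stretches, is made from HYP2 in air and from ANB1 under low oxygen. HYP2 had 1146 and 922 CPM in CRN/PPN2 with KOH against 2318 and 2091 CPM in CRN/PPN2 in YPD, and 1757 and 2053 CPM in CRN with KOH against 2065 and 2260.2 CPM in CRN in YPD. ANB1 had 23.3 and 24.8 CPM in CRN/PPN2 with KOH against 8.57 and 8.23 CPM in CRN/PPN2 in YPD, and 47 and 58.9 CPM in CRN with KOH against 13.6 and 15.7 CPM in CRN in YPD. With KOH, HYP2 was below all other libraries in CRN/PPN2 alone, whereas ANB1 was above the YPD libraries of its strain in both strains and highest in CRN. HYP2 fell with KOH in CRN/PPN2 (-1.09 ± 0.15 (SE), adjusted p = 1.15e-05) and was not called in CRN (-0.18 ± 0.15 (SE), adjusted p = 0.442), and the difference was -0.91 ± 0.21 (SE), adjusted p = 0.00282. ANB1 rose with KOH by 1.53 ± 0.27 (SE), adjusted p = 0.000103 in CRN/PPN2 and by 1.85 ± 0.17 (SE), adjusted p = 2.92e-07 in CRN, and the difference was not called (-0.32 ± 0.31 (SE), adjusted p = 0.436). The counts behind ANB1 were 37 and 21 in CRN/PPN2 with KOH and 42 and 42 in CRN/PPN2 in YPD, and after thinning all libraries to the smallest total the call in CRN/PPN2 was lost (adjusted p = 0.0545). Even so ANB1 averaged 24.1 CPM in CRN/PPN2 with KOH, where HYP2, a gene of the same length, averaged 1034 ± 158 CPM (SD, n = 2).

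**Figure D4:**
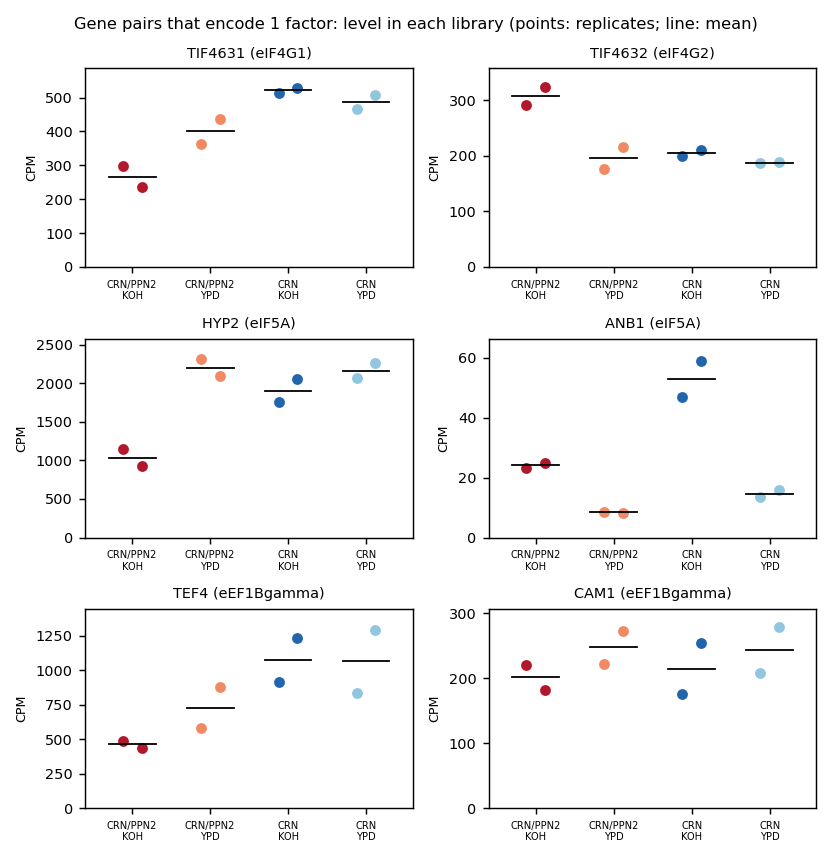
CPM (TMM-scaled, linear axis from 0) of the genes of 3 pairs in each library, with points for replicates 1 and 2 and a line at their mean, for eIF4G (top), eIF5A (middle) and the gamma subunit of eEF1B (bottom). With KOH in CRN/PPN2, TIF4631 and HYP2 lie below and TIF4632 and ANB1 above their YPD points, and the points of CAM1 overlap between groups.

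The window before ANB1 held 4 copies of ATTGTT, the core of the site bound by the hypoxic repressor Rox1 (capitals). At least 4 copies were found in 4 of the 6001 windows (0.0667%), and no other factor gene held more than 2.
ANB1, chrX:525482-525781, minus strand: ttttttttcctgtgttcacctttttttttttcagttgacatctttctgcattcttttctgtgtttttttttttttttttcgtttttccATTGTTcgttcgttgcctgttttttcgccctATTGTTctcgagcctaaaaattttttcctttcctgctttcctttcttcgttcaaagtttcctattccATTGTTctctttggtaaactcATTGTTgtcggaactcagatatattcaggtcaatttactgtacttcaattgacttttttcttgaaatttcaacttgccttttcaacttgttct
Of 7 other hypoxic or Rox1-repressed genes, 2 were higher and 2 lower with KOH in CRN, where 7.53% of all genes tested were higher and 7.61% lower. The higher ones were AAC3 (1.04, adjusted p = 0.00133) and HEM13 (0.59, adjusted p = 0.00618), and the lower ones COX5B (-0.62, adjusted p = 0.00264) and HMG2 (-0.42, adjusted p = 0.0417). AAC3 and HEM13 encode a mitochondrial ADP/ATP carrier and a haem biosynthesis enzyme. Of 4 aerobic counterparts, 3 were lower in CRN, among them CYC1, the cytochrome c gene next to ANB1 (-1.23, adjusted p = 8.82e-05). In CRN/PPN2 with KOH against YPD, CYC7, the hypoxic cytochrome c gene, was at 2.24 (adjusted p = 2.25e-10) and ROX1 itself at -1.06 (adjusted p = 3.99e-05), so the list did not move as one. The genes for the enzymes that make hypusine on eIF5A, DYS1 and LIA1, were lower in CRN/PPN2 with KOH, at -1.08 and -0.64 (adjusted p = 3.35e-06 and 0.000865). With KOH against YPD in CRN, LIA1 was called higher and DYS1 was not called.

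With KOH, CRN/PPN2 had less mRNA of the release and recycling genes than CRN: SUP35, for the GTPase eRF3, at -0.71, SUP45, for the stop codon reader eRF1, at -0.57, and RLI1, for the iron-sulfur ATPase that splits ribosomes, at -0.72 (highest adjusted p = 0.00148). With KOH against YPD in CRN/PPN2, RLI1 (-0.58) and SUP35 (-0.47) were called and SUP45 (-0.29, adjusted p = 0.0717) was not. The SUP35 call was lost without replicate 1 of CRN/PPN2 in either medium (value up to -0.23, adjusted p up to 0.17), and SUP45 was called in 6 alternatives.

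The GCN pathway genes rose where most factors fell. GCN2, for the eIF2 kinase, had 232 and 255 CPM in CRN/PPN2 with KOH, 156 and 138 CPM in CRN/PPN2 in YPD, 143 and 132 CPM in CRN with KOH and 146 and 138 CPM in CRN in YPD. CRN/PPN2 with KOH was above all 6 other libraries, which lay close together (0.72 ± 0.13 (SE), adjusted p = 0.000127 for KOH in CRN/PPN2, 0.77 ± 0.17 (SE), adjusted p = 0.00217 for the difference from CRN). GCN4 had 1624 and 2023 CPM in CRN/PPN2 with KOH, 1365 and 1465 CPM in CRN/PPN2 in YPD, 1419 and 1342 CPM in CRN with KOH and 1601 and 1617 CPM in CRN in YPD. Replicate 1 of CRN/PPN2 with KOH was close to both CRN libraries in YPD. The KOH effect in CRN/PPN2 (0.36 ± 0.14 (SE), adjusted p = 0.0359) was called in 6 of 18 alternatives, and was lost without any 1 of 7 libraries, all but replicate 1 of CRN/PPN2 with KOH, and in CRN GCN4 was not called (-0.22 ± 0.14 (SE), adjusted p = 0.309).
The amino acid biosynthesis genes that Gcn4 activates went down in both strains. With KOH, 26 of 29 tested were lower in CRN/PPN2 (median -0.97), against 25.5% of all genes tested. In CRN 27 of 29 were lower (median -0.81), against 7.61% of all genes, and none was higher in either strain. ARG3 and ARG1, of arginine synthesis, were at -3.61 and -2.76 in CRN/PPN2 and at -2.53 and -2.44 in CRN (largest adjusted p = 2.65e-10). The difference of the KOH effects was lower for 9 and higher for 6 of the 29, against 17.6% lower and 22.2% higher of all genes tested.

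Other parts of the translation machinery were counted beside the 54.7% of all genes called for KOH in CRN/PPN2, 15.1% for KOH in CRN and 56.7% for CRN/PPN2 against CRN with KOH. Of 20 cytosolic aminoacyl-tRNA synthetase genes, which charge tRNA, 18 (90%) were lower with KOH in CRN/PPN2 (median -0.63; THS1 -0.82 and CDC60 -0.76) and 1 in CRN. Of 46 other translation factor and regulator genes tested, 22 were lower and 3 higher with KOH in CRN/PPN2 (54.3% called). NPL3 (-1.29), for an mRNA-binding protein, had the smallest adjusted p, and the lowest value in the list was -1.48. In CRN 4 of these 46 genes were higher (8.7%), led by MBF1 (0.82), a co-activator of Gcn4. Of 138 cytosolic ribosomal protein genes, 39 were higher and 39 lower with KOH in CRN/PPN2 (56.5%), with a median of -0.07, and 8 were higher in CRN (5.8%). In CRN/PPN2 against CRN, both with KOH, 80 ribosomal protein genes were lower and 10 higher (65.2%), with a median of -0.52. These genes are short, and the median KOH effect in CRN/PPN2 over all genes of up to 600 coding bases was 0.37. The part of coding length in these counts was not tested. Of 8 mitochondrial translation factor genes, 4 were lower with KOH in CRN/PPN2 and none was called in CRN.

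**Figure D5:**
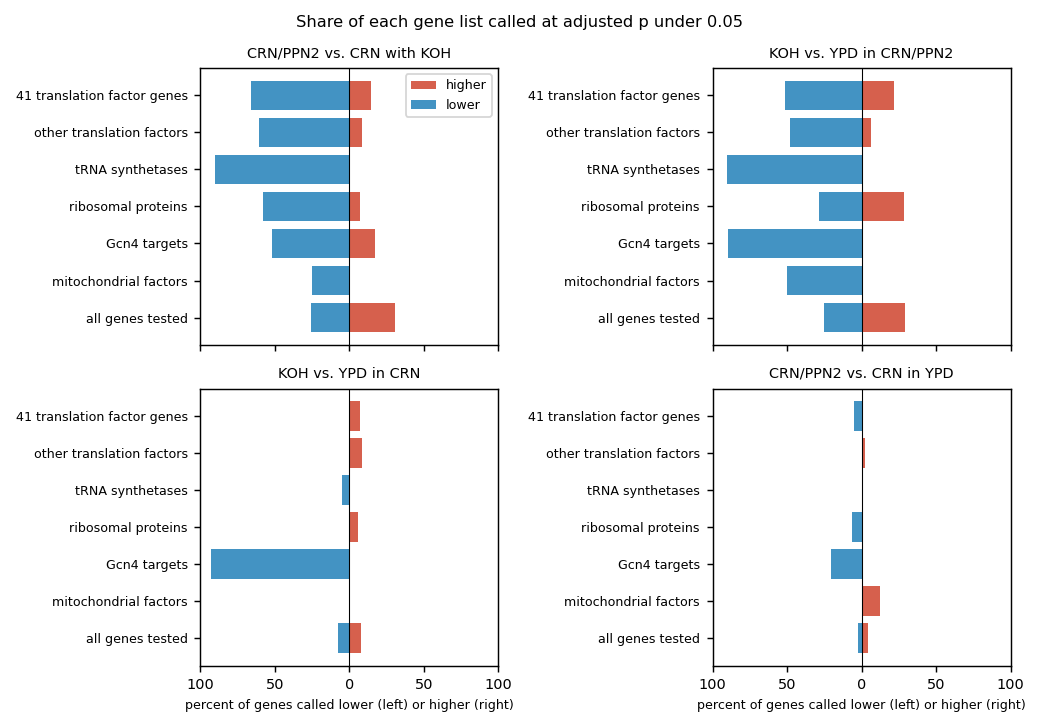
Percent of the genes of each list called lower (blue, left of 0) and higher (red, right of 0) in the comparisons CRN/PPN2 vs. CRN with KOH, KOH vs. YPD in CRN/PPN2, KOH vs. YPD in CRN and CRN/PPN2 vs. CRN in YPD. The factor genes and the tRNA synthetases lie mainly on the lower side in the first 2 comparisons, while all genes tested split about evenly.

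Over the 4 comparisons and the difference of KOH effects, 17 factor genes were lower in all 3 results that involve CRN/PPN2 with KOH and in no other, from DED1, EFT2 and HYP2 to GCN3 and TIF5. FUN12, GCN2, GCN4 and TIF4632 were higher in the same 3. CAM1, CDC33, GCD1, GCD6, PAB1 and TEF2 were not called in any, though of these only TEF2 was called in none of the alternatives. The 3 results that involve CRN/PPN2 with KOH share its 2 libraries and are not independent of each other. Of all genes tested, 25.9% were lower and 30.8% higher in CRN/PPN2 against CRN with KOH. For KOH in CRN/PPN2 these shares were 25.5% and 29.2%, and for the difference of KOH effects 17.6% and 22.2%. The share of all genes with each of these patterns was not counted. Ranks per kilobase of coding sequence are of counted reads only. Reads from the shared parts of TEF1, TEF2, EFT1, EFT2, TIF1 and TIF2 were left out, while their full coding length was used. The values of these genes are thus too low, and the ranks against them are uncertain. TIF11 had the most counted CPM per kb in replicate 1 of CRN/PPN2 with KOH (3802 CPM per kb). In replicate 2 GCN4 had the most (2391 CPM per kb, against 2248 for TIF11), and SUI1 and HYP2 were among the first 4 in both. HYP2 was first in both libraries of the other 3 groups, with 4650.3 CPM per kb in CRN/PPN2 in YPD, 4019 CPM per kb in CRN with KOH and 4562 CPM per kb in CRN in YPD. DED1 ranked 39 and 41 of 41 in CRN/PPN2 with KOH, against 31 and 35 in CRN/PPN2 in YPD, and between 37 and 39 in the 4 CRN libraries.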

How the data were processed

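Poly(A) RNA libraries (NEBNext Ultra Directional kit) of 4 groups with 2 libraries each were mapped by the authors with STAR 2.7.6a to R64-1-1 (Ensembl release 107 genes), and the deposited values are raw counts of uniquely mapped reads per gene, not normalized and not batch-corrected. Which strand setting was counted is not given in the sources used here. The 8 files of single libraries equalled the columns of the series table.

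The 5430 genes that reached 10 CPM in 2 or more of 8 libraries were fitted in R 4.3.3 with edgeR 4.0.16 (TMM, quasi-likelihood test, groups plus replicate as a block, Benjamini-Hochberg adjustment over all of them, threshold 0.05). The study's methods state that libraries of the same replicate number were prepared and sequenced together. Between groups, the differences of replicate 2 from replicate 1 correlated with r from 0.093 to 0.467 across genes. SE is the absolute log2 fold change over the square root of F and is approximate. CPM are TMM-scaled, and 1 count was 0.641 and 1.255 CPM before scaling in CRN/PPN2 with KOH and 0.2 to 0.26 elsewhere. Levels are relative to the sequenced mRNA, and RNA per cell was not measured. The fit was tested on simulated data. Coordinates, sequences and names are from RefSeq R64 (SGD annotation), and motifs were searched in Python 3.11.15.

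The members and the lists were chosen with earlier results of these data known. Values in every library are printed for the 4 called genes with the smallest adjusted p per comparison, gene pairs, GCN2 and GCN4, and up to 4 genes per other list were named by the same order. Alternatives were no block, DESeq2 1.42.0, upper quartile and RLE factors, ComBat-seq (sva 3.50.0), no filter, thinning to 796548 counts, fits of the 4 libraries compared, and each library left out in turn. Removal of a coding-length trend and leaving out both libraries of CRN/PPN2 with KOH were added after the data were seen.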

Additional observations from a re-analysis of the deposited data

Results flagged for a closer look

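The KOH effect in CRN/PPN2 minus the KOH effect in CRN was tested in edgeR and called for 25 of the 41 factor genes (adjusted p under 0.05; 39.7% of all genes tested were called). All values below are on the log2 scale, and all of them rest on the 2 libraries of CRN/PPN2 with KOH. In the cap complex and helicases the difference was -1.55 for DED1, -0.66 for TIF3, -0.66 for TIF4631, -0.54 for TIF2 and, on the higher side, 0.53 for TIF4632. Among eIF2 and the start codon factors it was -0.99 for GCD11, -0.75 for SUI2 and -0.63 for TIF5, and it was 0.74 for FUN12 and 1.02 for SUI1. In eIF2B it was -0.73 for GCD7 and -0.65 for GCN3, and in eIF3 -0.71 for PRT1, -0.73 for NIP1, -0.69 for TIF34 and -0.52 for TIF35. In elongation it was -1.06 for EFT2, -0.91 for HYP2, -0.79 for EFB1, -0.77 for EFT1 and -0.62 for TEF4, and in termination -0.62 for SUP35 and -0.49 for SUP45. The GCN genes had 0.77 (GCN2) and 0.58 (GCN4). The calls of DED1, EFT2, GCD11, GCN2, HYP2, NIP1, SUI1 and TIF34 were kept in all 17 alternative settings that gave a value, while TIF35 and TIF4632 kept theirs in 8, GCN4, SUP45 and TIF2 in 9, TEF4 in 10 and SUP35 in 11 of 17.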

How the results depend on the processing

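With 2 libraries per group, the 2 comparisons that do not involve CRN/PPN2 with KOH depended on the setting. For CRN/PPN2 vs. CRN in YPD (2 factor genes called), the number was 0 with no replicate block, 1 with upper quartile factors, 4 with no filter, 4 and 7 with ComBat-seq counts (quasi-likelihood and likelihood ratio test), 0 after thinning, 9 in the 4 libraries alone, 6 with the coding-length trend removed and 9 without both libraries of CRN/PPN2 with KOH. It ranged from 0 to 10 when 1 library was left out. For KOH vs. YPD in CRN (3 called), it was 1 with no replicate block, 9 with ComBat-seq counts and the likelihood ratio test, 1 after thinning, 14 (12 higher, 2 lower) in the 4 libraries alone and 9 without both libraries of CRN/PPN2 with KOH, and from 1 to 11 when 1 library was left out. The difference of the KOH effects (25 called) gave 16 with no replicate block and from 12 to 27 when 1 library was left out, 12 without replicate 1 of CRN with KOH. The counts for CRN/PPN2 vs. CRN with KOH (33; 27 to 35 when 1 library was left out, 28 with no replicate block) and KOH vs. YPD in CRN/PPN2 (30; 21 to 31, 25 with no replicate block) stayed within 1.5 times. The cause of these shifts was not tested.

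No value of the factor genes printed in every library turned its direction with a call. CDC33, which is not among them, was at 0.06 for KOH in CRN/PPN2. It was at -0.41 without replicate 1 and at 0.45 without replicate 2 of CRN/PPN2 with KOH. Upper quartile factors moved the median of all genes for KOH vs. YPD in CRN/PPN2 to -0.11, against -0.01, and that of the factor genes to -0.47, against -0.37, with 8 higher and 24 lower. Without replicate 2 of CRN/PPN2 with KOH the median of the factor genes was -0.23. Over all settings these genes gave 1648 values on the same side of the threshold, 116 that lost and 56 that gained a call. The small totals of CRN/PPN2 with KOH and the wider spread between its replicates limit changes that can be seen there. Each value assumes that its 2 libraries represent the group.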
